A study of Papio anubis with 12 samples.

Results

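GABA-A receptors are the main inhibitory receptors of the cerebral cortex, and 7 of their subunit genes were followed here in the precentral gyrus, the primary motor cortex, of 12 baboon neonates (Papio anubis) raised on 3 formulas. The genes were GABRA2, GABRA3, GABRA4, GABRA5, GABRB1, GABRB2 and GABRD. A probe set was taken when the array annotation gave it a single gene symbol that was one of these 7, which found 21 of the 54613 probe sets that are not controls. GABRB1 had 6 of them, GABRA2 had 4, GABRA5 and GABRB2 had 3 each, GABRA4 and GABRD had 2 each, and GABRA3 had 1. All 21 were kept, with no filter on dim values.

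The formula groups held 4 animals each, with 1 Affymetrix HG-U133 Plus 2.0 array per animal. Formula C had no docosahexaenoic acid (DHA) and no arachidonic acid (ARA), formula L had 0.33% DHA and 0.67% ARA, and formula L3 had 1.00% DHA and 0.67% ARA. The animals were 83 to 87 days old, with 2 males fed C, 1 male fed L and none fed L3. The label of C replicate 2 names only the brain as its tissue, while the others name the precentral gyrus. The comparison asked how dietary DHA and ARA change transcript levels in this cortical region.

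A GABA-A receptor is a ring of subunits around a chloride channel that opens when GABA binds, and the subunits it is built from set where it sits and how it responds. GABA binds where alpha and beta subunits meet. The alpha2 subunit (GABRA2) is known from synapses, among them those on the axon initial segment, and alpha3 (GABRA3) is prominent in developing cortex. The alpha5 subunit (GABRA5) and receptors that join alpha4 (GABRA4) with delta (GABRD) lie largely outside synapses, where they carry a steady, tonic current. The beta subunits (GABRB1 and GABRB2) complete the binding site for GABA and take part in anchoring and trafficking of the receptor. Among the protein-coding genes of the baboon annotation, GABRA4 and GABRB1 are neighbours, and GABRB2 lies next to GABRA6. GABRA2 lies next to GABRG1 and is separated from GABRA4 by a gene that has only a locus number as its name.

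The deposited values were MAS5 signals, which are intensities on a linear scale. They are given below as deposited, in replicate order 1 to 4. Differences are on the scale of log2(signal + 16) after quantile normalization, from a limma fit of the 3 group means across all probe sets, with its standard error (SE), and adjusted p is by the Benjamini-Hochberg method over all probe sets. A positive difference means a higher value in the formula named first. Signals of different probe sets cannot be set against each other, since each has its own probes, and in cortex fewer cells of a type and less RNA per cell cannot be told apart.

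The arrays were not all alike. Ranked by the mean of 45 bacterial and phage spike-in control probe sets, the upper 6 arrays, called the high spike-in set, lay at 7.98 to 8.63 (log2) and the other 6, called the low spike-in set, at 6.89 to 7.78. The same 6 arrays of the low set also had the lowest ratios of the 3' to the 5' ACTB control probe set, a measure of RNA integrity. This log2 ratio was 1.87 to 6.18 in the high spike-in set and -0.15 to 1.86 in the low set. The sets thus nearly met by this measure. Its highest value was that of L3 replicate 1, and the next was 3.59, in C replicate 1. The high set held 3 arrays of L3, 1 of L and 2 of C, and the low set held 1 of L3, 3 of L and 2 of C. Formula and spike-in set are therefore partly mixed, and results are also given with the spike-in set in the fit. Correlations of log2 values between arrays were 0.68 to 0.91. Neuronal markers were bright throughout, with a mean of 10 pan-neuronal genes between 12.25 and 12.73 (log2). Genes of other tissues, which have no known role in cortex, had median signals of 23.8 to 470.2 over 19 genes, and 11 of the 21 subunit probe sets had medians below the highest of these. Of the brightest probe set of each subunit gene, GABRA3 and GABRD were the ones below it. This highest median is that of ALB, whose signals ran from 5.9 to 13179.8 over the arrays. The next highest was 317.2, for FGA, and the medians of GABRD 208457_at (334.65) and GABRA2 207014_at (427.2) lay above that.

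By limma, 0 of 21 subunit probe sets differed between formulas at an adjusted p under 0.05. In L3/C 0 of 21 passed even an unadjusted p under 0.05, where 4.26% of all probe sets did, and in L/C 0 of 21, where 2.42% did. In L3/L 1 of 21 passed, against 5.4% of all probe sets, and it was higher in L3. By direction, the shares of all probe sets were 2.22% higher and 2.04% lower in L3/C, 1.15% higher and 1.27% lower in L/C, and 2.96% higher and 2.44% lower in L3/L. The share of all 54613 probe sets at an adjusted p under 0.05 was 0% in each of these comparisons. In the test of any difference among the 3 formulas, 1 of 21 passed unadjusted, against 3.67% of all probe sets, and 0 after adjustment.

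The differences themselves were small in L3/C. The median over the 21 probe sets was 0.03 (log2) and ran between -0.58 and 0.55, against a median of 0.00 over all probe sets, and 12 of 21 were above 0. In L/C the median was 0.17, against -0.01 over all, with values between -1.04 and 1.53 and 14 of 21 above 0. In L3/L the median was -0.14, against 0.01 over all, with values between -1.40 and 0.80 and 8 of 21 above 0. The 2 comparisons with C share its 4 arrays, so their values are not independent. The median SE of a subunit difference was 0.41, against 0.51 over all probe sets.

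**Figure D1:**
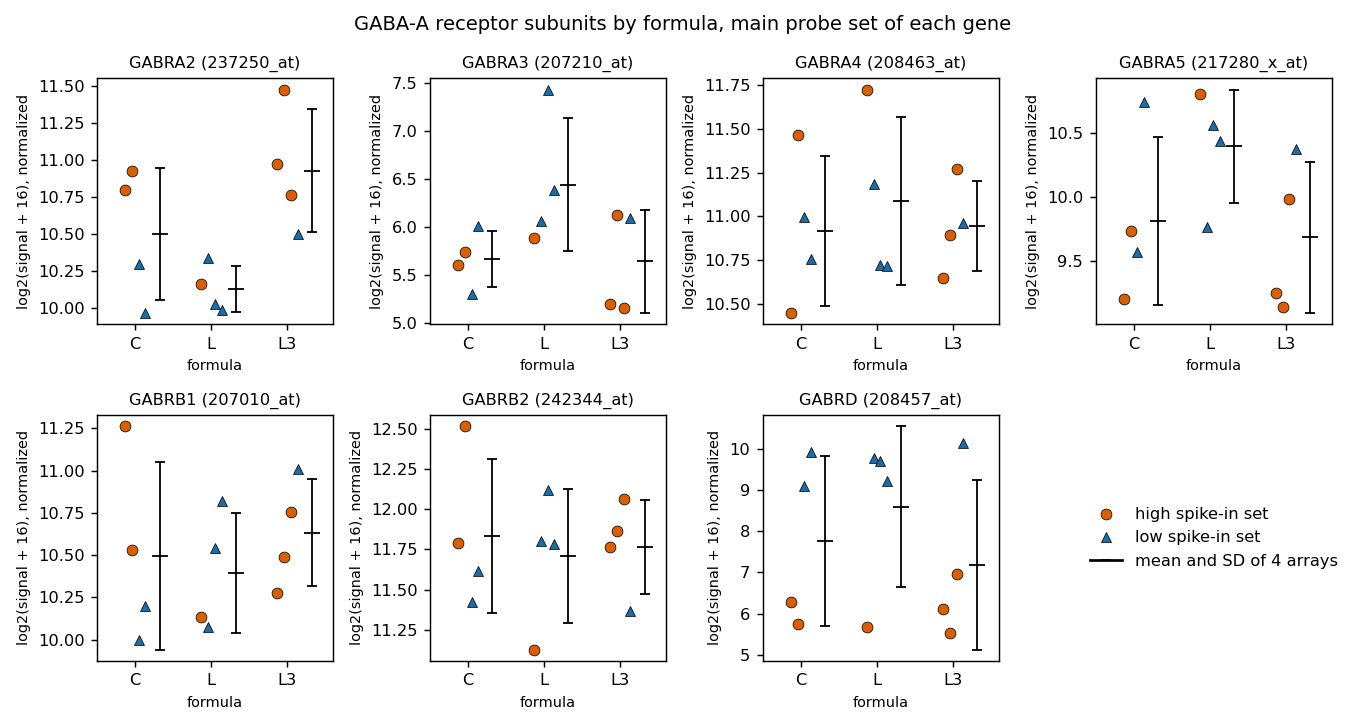
Normalized log2(signal + 16) of the main (brightest) probe set of each subunit gene by formula, 4 arrays each, with circles for the high and triangles for the low spike-in set and the bar showing mean and SD. Only GABRA2 shows L3 arrays all above the L arrays, and GABRD splits by spike-in set within every formula.

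GABRA2, the alpha2 subunit, gave the one difference that passed without adjustment. Its brightest probe set (237250_at) had signals of 1718.3, 1500.3, 1572.0 and 1089.6 in C, of 888.5, 1600.0, 1086.6 and 1148.9 in L animals, and of 1746.6, 2531.1, 1378.3 and 1576.1 in L3. The deposited signals of L3 and L overlapped through L replicate 2, while after normalization all 4 L3 arrays lay above all 4 L arrays. The normalized mean was 10.93 ± 0.41 in L3 and 10.13 ± 0.16 in L (SD, n = 4 each), a difference of 0.80 (SE 0.26, 95% interval 0.25 to 1.35). Limma gave an unadjusted p of 0.00701 and an adjusted p of 0.891 (0.348 to 1.00 over the alternatives run), and the two-sided exact permutation test gave p = 0.0286, the smallest that 4 against 4 arrays allow. L3/C was 0.43 (SE 0.26) and L/C was -0.37 (SE 0.26), neither past an unadjusted 0.05. Leaving out 1 array gave 0.25 (without L3 replicate 2) to 0.57 (without C replicate 2 or L3 replicate 4) in L3/C, and -0.55 (without C replicate 4) to -0.23 (without C replicate 2) in L/C.

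The GABRA2 values were also set against the spike-in sets. By 237250_at the mean was 0.47 higher (log2, SE 0.19, adjusted p = 0.157) in the high than in the low spike-in set. With the spike-in set in the fit, L3/L was 0.56 (SE 0.23, adjusted p = 0.904). With the ACTB ratio as a covariate instead, L3/L was 0.64 (SE 0.24, adjusted p = 0.896). Within the high set, where L has 1 array, L3/L was 0.91 (SE 0.37), and within the low set, where L3 has 1 array, it was 0.38 (SE 0.24). With median centring in place of quantile normalization, L3/L came to 0.40 (SE 0.34, unadjusted p = 0.264) and L3/C to 0.11 (SE 0.34), and without further normalization L3/L came to 0.60 (SE 0.27, unadjusted p = 0.0422). Of the genes of the cell type lists, 0 differed between L3 and L at an adjusted p under 0.05, where 0% of all probe sets did. At an unadjusted p under 0.05 by limma the share of all was 5.4%. Of 6 glutamatergic genes, SLC17A6 and CAMK2A were then higher and NEUROD6 lower in L3. ENO2 and UCHL1 of 10 pan-neuronal genes and AIF1 of 7 microglia genes were lower, and HBB of 2 erythroid genes was higher. The interneuron, astrocyte, oligodendrocyte and endothelium lists had 0. The mean of the pan-neuronal list was 12.45 ± 0.15 in L3 and 12.69 ± 0.06 in L (log2, SD, n = 4 each), with 2 of 10 genes above 0 in L3/L. The astrocyte list averaged 10.62 ± 0.14 in L3 and 10.32 ± 0.20 in L, with 6 of 7 genes above 0, and the microglia list 7.97 ± 0.67 in L3 and 8.55 ± 0.63 in L, with 1 of 7 above 0. Their part in the GABRA2 difference was not tested.

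The other GABRA2 probe sets did not repeat this difference. In L3/L the values were 0.42 (SE 0.48) for 1554308_s_at, -0.33 (SE 0.38) for 207014_at and -0.30 (SE 0.46) for 216039_at. Signals over the 12 arrays were 35.3 to 149.7 for 1554308_s_at and 176.6 to 541.9 for 207014_at. For 216039_at they were 113.4 to 275.9. The medians were 70.1 for 1554308_s_at, 427.2 for 207014_at and 159.4 for 216039_at. All of them lay below the highest median of the genes of other tissues (470.2, ALB). That of 207014_at lay above the next highest (317.2, FGA). All 3 overlapped between every pair of formulas.

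GABRA3, the alpha3 subunit, was seen by a single dim probe set (207210_at). Its signals were 35.7, 47.1, 17.9 and 44.4 in C, 53.4, 42.1, 147.6 and 57.1 in L, and 25.1, 54.9, 21.5 and 50.3 in L3. Of the L values 3 lay above all C values, and L replicate 3 was by far the highest. L/C was 0.78 (SE 0.45, adjusted p = 1.00, exact permutation p = 0.0571) and L3/L was -0.80 (SE 0.45, adjusted p = 0.891). L3/C was -0.02 (SE 0.45). Without L replicate 3, L/C was 0.45 (SE 0.43, unadjusted p = 0.316).

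GABRA4, the alpha4 subunit, is the usual partner of delta in forebrain. Its brighter probe set (208463_at) had 1343.1, 2160.2, 2826.6 and 1972.2 in C animals, 2150.5, 3197.1, 1793.2 and 2026.8 in L, and 1379.0, 1693.2, 1869.1 and 2203.7 in L3. The 3 groups lay over each other. L/C was 0.17 and L3/C was 0.03 (SE 0.27 each), with a 95% interval of -0.54 to 0.59 for L3/C. The dimmer probe set (233437_at) had 169.5 to 483.1 in C, 176.7 to 645.9 in L and 389.7 to 715.0 in L3, with L3/C at 0.55 (SE 0.39), the highest L3/C difference of the 21 probe sets.

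GABRA5, the alpha5 subunit, gave opposite readings from its probe sets. By 206456_at the signals were 784.7, 817.5, 824.0 and 647.7 in C, 578.6, 766.4, 681.0 and 735.1 in L, and 937.3, 878.1, 848.7 and 754.9 in L3. By 217280_x_at they were 565.4, 746.0, 831.3 and 1942.8 in C animals, 1240.6, 976.8, 1605.6 and 1615.3 in L, and 577.9, 534.6, 856.3 and 1434.7 in L3. The first was higher in L3 than in L without overlap of the normalized values, and the second tended the other way with overlap.

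For 206456_at L3/L was 0.46 (SE 0.23, unadjusted p = 0.0645, adjusted p = 0.891, exact permutation p = 0.0286), and for 217280_x_at it was -0.71 (SE 0.36, unadjusted p = 0.0652, adjusted p = 0.891, exact permutation p = 0.143). With the spike-in set in the fit, L3/L of 206456_at was 0.36 (SE 0.23), and with median centring it was 0.10 (SE 0.29). Across the 12 arrays the normalized values of the pair had a Pearson r of -0.78, with -0.73 in the high and -0.84 in the low spike-in set, as a description over arrays that share normalization. A suffix _x_at marks a set whose probes can also match other transcripts. The third set, 215531_s_at, had signals of 328.2, 528.0, 494.1 and 1643.3 in C, 265.9, 801.6, 1835.2 and 2061.0 in L, and 254.0, 762.9, 759.3 and 1200.7 in L3. Its L3/L difference was -0.35 (SE 0.61).

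GABRA2 237250_at and GABRA5 206456_at were the subunit probe sets whose L3 values all lay above L, 2 of 21, where 1.53% of all probe sets did so. In the other direction 0 of 21 separated, against 1.14% of all. In L3/C and in L/C 0 of 21 separated in either direction. The corresponding shares of all probe sets were 1.14% higher and 1.07% lower in L3/C, and 0.93% higher and 1.17% lower in L/C.

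**Figure D2:**
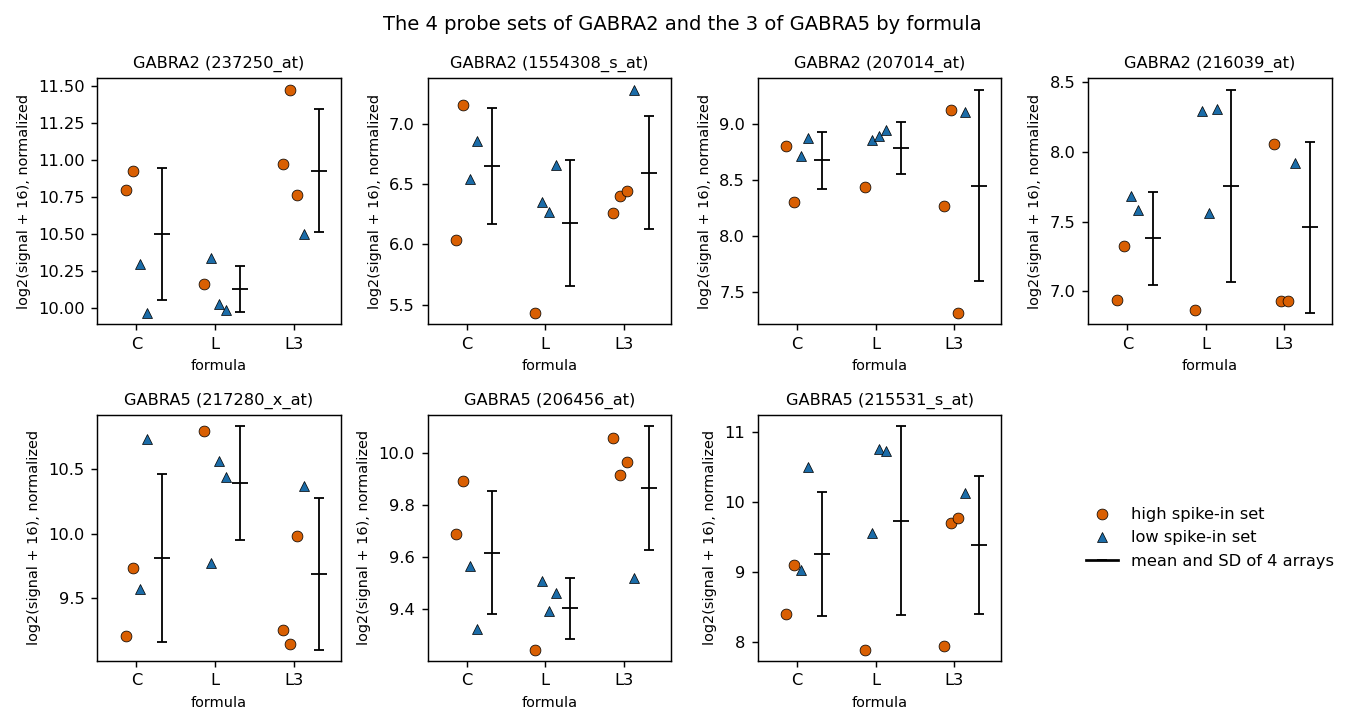
Normalized log2(signal + 16) of the 4 GABRA2 and the 3 GABRA5 probe sets by formula, with circles for the high and triangles for the low spike-in set and mean and SD of 4 arrays. GABRA2 237250_at and GABRA5 206456_at have L3 above L, while GABRA5 217280_x_at has a lower mean in L3 than in L.

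GABRB1, the beta1 subunit, had the most probe sets. By its brightest (207010_at) the signals were 2315.9, 1186.5, 1211.1 and 1297.6 in C, 875.6, 1272.9, 1584.2 and 2170.7 in L, and 1080.7, 1287.6, 1370.6 and 2273.7 in L3. As deposited, C and L3 each had 1 array well above the other 3, and the L signals were spread more evenly. The groups lay over each other, with L3/C at 0.14 and L/C at -0.10 (SE 0.28 each). The 95% interval was -0.47 to 0.74 for L3/C and -0.70 to 0.50 for L/C.

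Of the other GABRB1 sets, 1556904_at had the largest formula difference of all 21, with L/C at 1.53 (SE 0.86, unadjusted p = 0.0947, exact permutation p = 0.229). Its signals were 39.7, 23.8, 43.6 and 337.7 in C animals, 50.3, 267.9, 385.9 and 398.9 in L, and 33.7, 249.1, 36.0 and 255.5 in L3. The arrays fell into dim and bright ones within each formula, and the set also differed between the spike-in sets. With the spike-in set in the fit L/C was 0.99 (SE 0.63), within the high set 0.43 (L has 1 array there), within the low set 1.24 (SE 0.62), and with the ACTB ratio as a covariate 1.08 (SE 0.64). Leaving out 1 array gave 1.09 (without C replicate 2) to 2.25 (without C replicate 4). For 1557256_a_at L/C was -1.04 (SE 0.68), with signals between 8.6 and 336.9 over the 12 arrays. The remaining 3 sets had L3/C differences of 0.34 (SE 0.41) for 1558225_at, 0.09 (SE 0.52) for 1558226_a_at and 0.01 (SE 0.30) for 236716_at.

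GABRB2, the beta2 subunit, had by its brightest set (242344_at) signals of 3408.0, 4278.2, 4028.8 and 3657.9 in C, 1516.6, 5240.4, 4836.4 and 4358.3 in L, and 2883.5, 3362.3, 3143.7 and 2941.7 in L3. As deposited, all 4 L3 signals lay below all 4 C signals. After quantile normalization they overlapped, and L3/C was -0.07 (SE 0.26, 95% interval -0.62 to 0.47), against -0.31 (SE 0.33) without further normalization and -0.48 (SE 0.45) with median centring. L/C was -0.13 (SE 0.26), with L replicate 1 far below the other L arrays. By 207352_s_at, a dimmer set with signals of 61.3 to 696.6, L3/L was -1.21 (SE 0.62, unadjusted p = 0.0679, exact permutation p = 0.0571) and L/C was 0.92 (SE 0.62). By 1557122_s_at the differences were 0.03 in L3/C and 0.11 in L/C (SE 0.27 each).

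**Figure D3:**
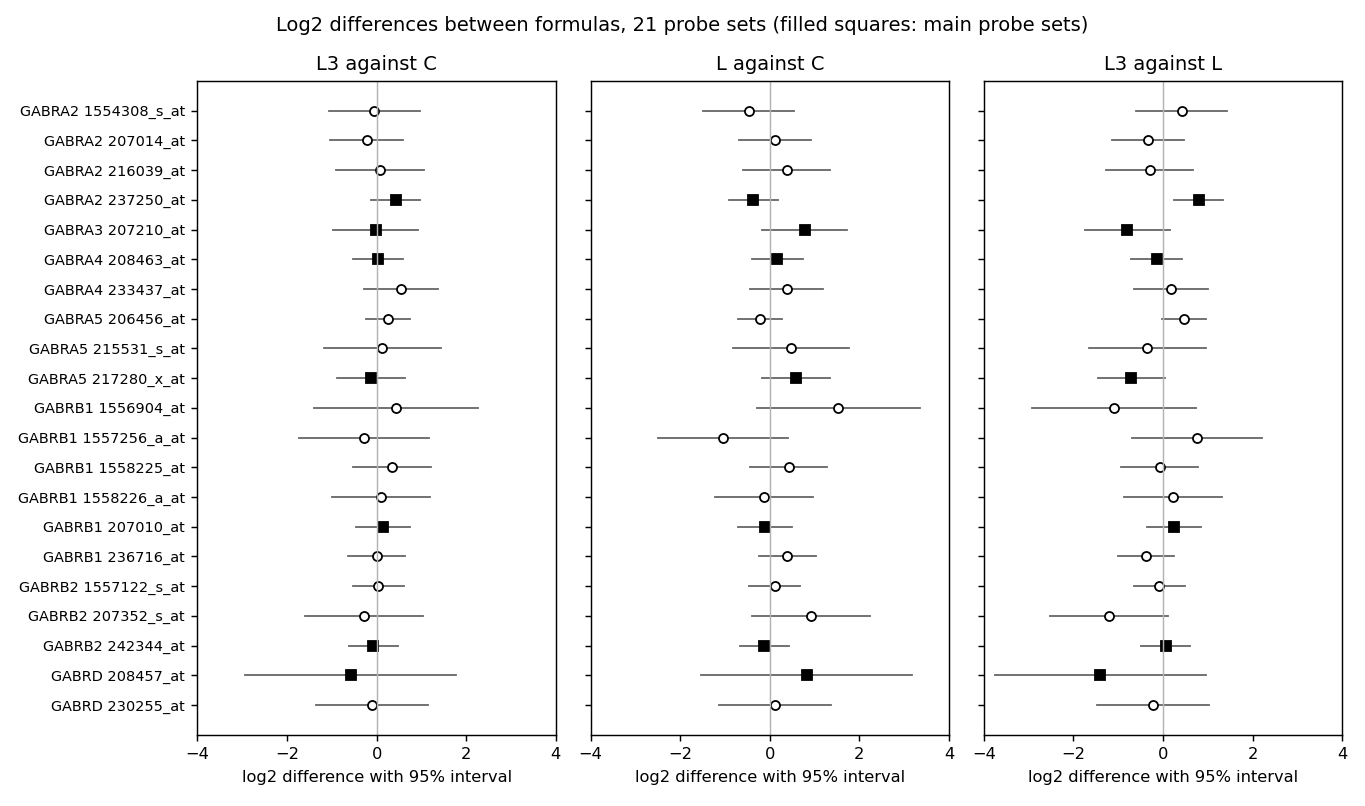
Log2 differences with 95% intervals of the 21 subunit probe sets in L3/C, L/C and L3/L, with filled squares for the main probe set of each gene. The interval leaves out 0 only for GABRA2 237250_at in L3/L (0.25 to 1.35), and the widest intervals belong to GABRD 208457_at and GABRB1 1556904_at.

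GABRD, the delta subunit of receptors outside synapses, varied more between arrays than any other main probe set. Its signals (208457_at) were 68.2, 47.4, 535.5 and 1054.7 in C, 44.8, 977.6, 852.1 and 600.6 in L, and 61.0, 31.4, 133.8 and 1218.0 in L3. Each formula held dim arrays and bright ones. The formula differences were -0.58 in L3/C, 0.82 in L/C and -1.40 in L3/L (SE 1.11 each), with adjusted p of 0.999, 1.00 and 0.902.

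The dim GABRD arrays were those of the high spike-in set. Signals were 31.4 to 133.8 (median 54.2) in the high set and 535.5 to 1218.0 (median 914.9) in the low set, with no overlap. With formula in the fit the difference was -3.75 (log2, SE 0.35, adjusted p = 2.54e-05), and 19 of the 54613 probe sets had a smaller p. The signals in the high set lie among those of the genes of other tissues, so the size of this difference depends on the pseudocount, with -2.99 for 64 and -4.14 for 1. With the spike-in set in the fit, the GABRD difference was 0.36 in L3/C and -0.11 in L/C (SE 0.40 each) and 0.47 in L3/L (SE 0.43), so all 3 turned sign. Within the high set L3/C was 0.18 (SE 0.73), L/C was -0.34 (SE 0.98) and L3/L was 0.52 (SE 0.93), and within the low set L3/C was 0.63 (SE 0.39), L/C was 0.04 (SE 0.29) and L3/L was 0.59 (SE 0.37). The second GABRD probe set (230255_at) had 16.1 to 170.6 in the high set and 31.6 to 125.5 in the low set and did not separate them (-0.64, SE 0.51, adjusted p = 0.517).

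**Figure D4:**
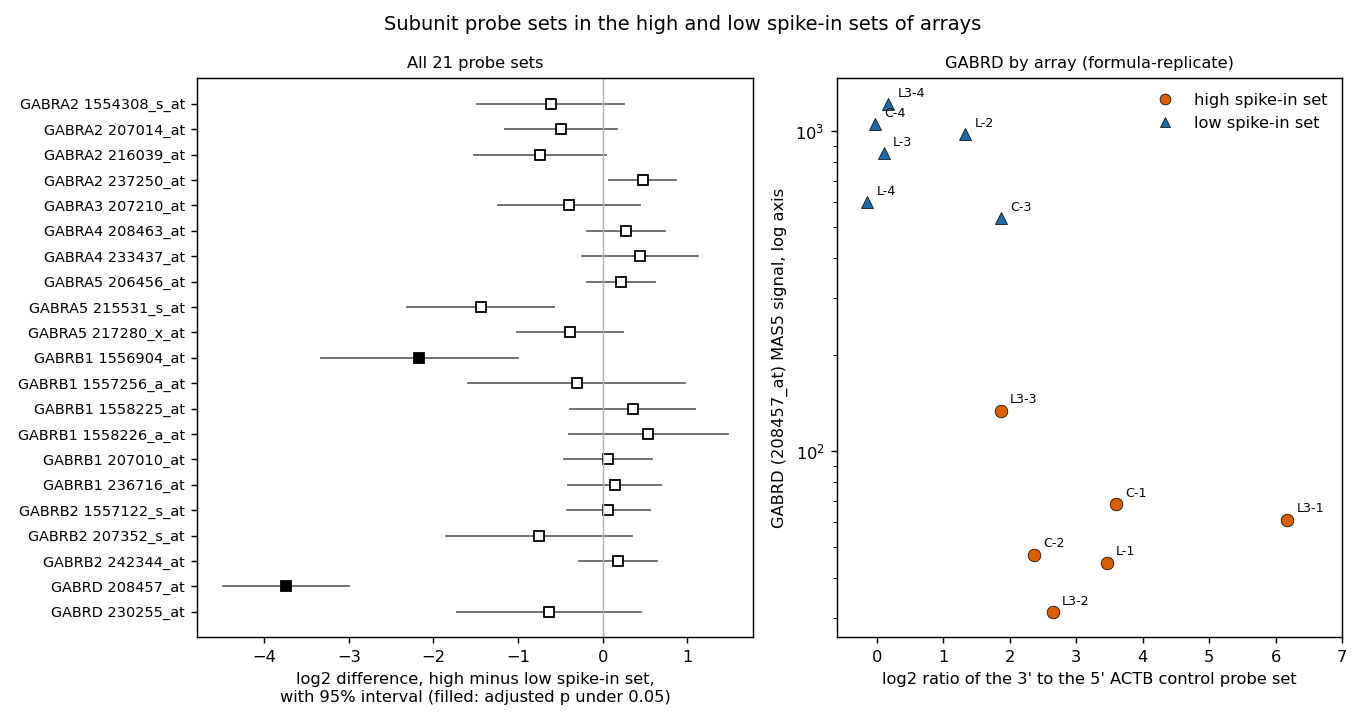
Left, log2 differences of the high minus the low spike-in set with 95% intervals for the 21 probe sets, filled where the adjusted p is under 0.05 (GABRD 208457_at and GABRB1 1556904_at). Right, the GABRD signal of each array on a log axis against the log2 ratio of the 3' to the 5' ACTB control probe set, where the 6 arrays of the high set lie at 31.4 to 133.8 and the 6 of the low set at 535.5 to 1218.0.

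GABRB1 1556904_at was the other subunit probe set that differed between the spike-in sets. It had 23.8 to 249.1 (median 37.9) in the high set and 43.6 to 398.9 (median 302.8) in the low set, with overlap through L3 replicate 2 and C replicate 3. The difference was -2.17 (SE 0.55, adjusted p = 0.0308). The call was lost on leaving out any one of C replicates 2 and 4, L replicates 1, 3 and 4 or L3 replicate 4, with adjusted p between 0.0568 and 0.192. GABRA5 215531_s_at, at 254.0 to 762.9 in the high set and 494.1 to 2061.0 in the low set, stood at -1.44 (SE 0.41, adjusted p = 0.0509).

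In all, 2 of 21 subunit probe sets were lower in the high set and 0 were higher at an adjusted p under 0.05, where 3.57% of all probe sets were lower and 1.95% higher (5.52% in either direction). Values without overlap were found for 1 of 21 in the lower direction, against 2.67% of all. The median difference over the 21 was -0.31, against 0.05 over all probe sets. Over the main probe sets of the 7 genes alone it was 0.07, with 4 of 7 above 0. In arrays of the high set the microglia marker list averaged 7.37 to 7.78 (log2), against 8.22 to 9.20 in the low set (7 of 7 genes below 0, with CSF1R at an adjusted p under 0.05). The glutamatergic list averaged 10.30 to 10.84 in the high set, against 10.88 to 11.31 in the low set, with 4 of 6 genes below 0, 2 of them called (SLC17A7 and NRGN), and CAMK2A and NEUROD6 at 0.20 and 0.33. The endothelium list averaged 7.60 to 8.17 in the high set, against 8.19 to 8.51 in the low set, with 5 of 6 genes below 0 and 0 called. Other lists were mixed. Below 0 were 5 of 10 pan-neuronal genes (SNAP25 called higher, UCHL1 lower) and 6 of 10 interneuron genes (NPY higher, PVALB lower). So were 2 of 7 astrocyte genes (SLC1A2 and SLC1A3 higher, S100B lower), 5 of 7 oligodendrocyte genes (0 called) and 0 of 2 erythroid genes. Of 19 genes of other tissues 4 were below 0, with AHSG and FGB called higher and 0 called lower. ALB, made by liver, was not called, but it reached 13180 in the high set, against at most 619.0 in the low set. The part of spike-in signal, RNA integrity and these cell type lists in the GABRD and GABRB1 values was not tested. The spike-in sets were defined from the arrays and are not groups of the study.

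Levels of the main probe sets were also set against spike-in signal, the ACTB ratio and the pan-neuronal mean. This was done within each spike-in set, 6 arrays at a time. The sets are a division by rank of spike-in signal and not separate clusters, since their ACTB ratios nearly meet and their pan-neuronal means overlap. Of 42 relations, 3 had an exact permutation p under 0.05 and 0 did after adjustment over the 42 (smallest adjusted p = 0.263). GABRB1 207010_at had a negative correlation with spike-in signal in both spike-in sets that did not pass the adjustment, with Pearson r of -0.92 (exact permutation p = 0.0111, rho -0.71, p = 0.136) in the high set and -0.88 (exact permutation p = 0.0222, rho -0.89, p = 0.0333) in the low set, with adjusted p of 0.263 and 0.311. Without the 2 arrays farthest from the median, r was -0.56 in the high and -0.95 in the low set. The third was GABRA5 217280_x_at with the ACTB ratio in the low set, with Pearson r of -0.96 (exact permutation p = 0.0125, rho -0.83, p = 0.0583, adjusted p = 0.263), and it rested on 2 arrays, since r was -0.23 without them.

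Across the 12 arrays, the genes whose pattern was most like each subunit were found among 22066 to 22069 probe sets of other genes with a mean above the median of all. GABRD was most like GSX2, a homeobox gene seen here by an _x_at set (r = 0.98), and GRIN1, the obligate NMDA receptor subunit (r = 0.98). GABRA2 was most like HMGN3 (r = 0.95) and SKIC3 (r = 0.93), GABRA4 like RPF1 (r = 0.93) and ZNF212 (r = 0.91), and GABRA5 (217280_x_at) like ST3GAL3 (r = 0.94) and FLOT2 (r = 0.93). The likeness was lower for GABRB2 with SLC2A5 (r = 0.89), for GABRA3 with AXL (r = 0.85) and for GABRB1 with RNF115 (r = 0.80). These are the highest of many correlations over arrays that share their spike-in sets, and are a description.

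Probe sets of the same gene often went different ways over the arrays. Of the 29 pairs of probe sets within a gene, 15 had a negative r over the 12 arrays, and the median r was -0.00. The highest was 0.57, for GABRB1 1558225_at and 1558226_a_at. The lowest was the GABRA5 pair above.

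Genes of the rest of the GABA system were compared in the same fit. The shares of all probe sets at an unadjusted p under 0.05 were 4.26% in L3/C, 2.42% in L/C and 5.4% in L3/L. Of the other GABA-A and GABA-C subunits 8 of 12 listed were measured, and 0 passed an unadjusted p under 0.05 in any comparison, with GABRG3, a gamma subunit, at 0.67 in L3/C (SE 0.46). Of the genes for synthesis, transport and breakdown of GABA 11 of 12 were measured and 0 passed, with GLUL, glutamine synthetase, at 0.36 in L3/C (SE 0.18). Of 14 measured genes for anchoring and trafficking, 1 passed in L3/L and 0 in the other comparisons. GABARAPL1, a relative of the GABA-A receptor associated protein, was 1.11 higher in L3 than in L (SE 0.50, unadjusted p = 0.0428, adjusted p = 0.891). GABARAPL1 was also 1.01 higher in the high than in the low spike-in set (SE 0.37, unadjusted p = 0.0138, adjusted p = 0.122), and with the spike-in set in the fit its L3/L difference was 0.60 (SE 0.45, unadjusted p = 0.200). Of 9 measured genes of GABA-B receptors and chloride transport, 1 passed in L3/C and 0 in the other comparisons. KCTD12, an auxiliary GABA-B subunit, was 0.77 higher in L3 than in C (SE 0.33, unadjusted p = 0.0347, adjusted p = 0.999), and 0.88 with the spike-in set in the fit (SE 0.31). After adjustment 0 passed in any of these lists.

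Between the spike-in sets, 4 of the 42 genes measured in these 4 lists were lower in the high set at an adjusted p under 0.05 by limma (9.52%, against 3.57% of all probe sets) and 0 were higher (against 1.95%). Each listed gene was taken by its brightest probe set. The shares of all count every probe set, dim ones included, so the 2 kinds of share are of unlike sets. The 4 genes are named after their values were seen. GABBR1, a GABA-B receptor subunit, averaged 1859 in the high set and 6882 in the low set (-1.39, SE 0.17, adjusted p = 0.000343). SLC32A1, which loads GABA into vesicles, averaged 448.7 in the high set and 838.3 in the low set (-0.998, SE 0.27, adjusted p = 0.0379). ALDH5A1, which breaks GABA down, differed by -2.03 (SE 0.55, adjusted p = 0.0399), and ZDHHC3, a palmitoyltransferase, by -1.47 (SE 0.35, adjusted p = 0.0217). Of the 8 other subunits measured 0 were called, and 7 had a value above 0.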

How the data were processed

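The authors deposited 1 table of MAS5 signals from GCOS, which are intensities on a linear scale, 1 column per animal, and each deposited array had been scaled to a trimmed mean of 250.0 (2% trimmed at either end). The paper's methods describe RMA values, and the table does not hold them. Precision is limited by the number of arrays, and no counting depth applies.

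Of the probe sets, 62 controls were left out. A pseudocount of 16 was added, log2 values were quantile normalized, and limma (3.58.1 in R 4.3.3) fitted the means of the 3 groups with a variance trend and 9 residual degrees of freedom. P-values were adjusted over 54613 probe sets by the Benjamini-Hochberg method at 0.05. Exact permutation tests were two-sided. A platform annotation gave 41091 probe sets 1 symbol, 1801 several and 11721 none. Gene neighbours came from the RefSeq annotation of the baboon. Probes match human transcripts, and no sequence was at hand, so none is shown.

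All member probe sets are named, and the main one of a gene has the highest mean. In related lists, 1 probe set per gene, genes at an unadjusted p under 0.05 and up to 3 with the smallest p could be named. The spike-in sets and the fits that use them were chosen after seeing the data, and correlations planned over 12 arrays were run within spike-in sets. Members and lists were chosen with earlier results of these data known. Alternatives were other scalings, pseudocounts, filters, tests and covariates, sex, leaving out each array, and other probe sets. The fit was also run on simulated data with independent errors. These held no split of arrays, so that run cannot speak to the spike-in sets. Figures used matplotlib 3.10.9.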

Additional observations from a re-analysis of the deposited data

Results flagged for a closer look

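In 63 sets of 4 arrays (21 probe sets in 3 formulas), 3 held an array whose gap to the nearest of the others was too large a part of the range by Dixon's criterion, where chance gives about 5%. All 3 were L replicate 1, and all were low. GABRA2 207014_at had a normalized value of 8.44 in that array, against 8.86 to 8.94 in the other L arrays (signal 373.1, against 420.5 to 476.7). GABRB1 1556904_at had 5.81, against 8.34 to 8.74 (signal 50.3, against 267.9 to 398.9). GABRD 208457_at had 5.68, against 9.21 to 9.77 (signal 44.8, against 600.6 to 977.6). L replicate 1 is the one L array in the high spike-in set. Without it, L/C of GABRD was 1.79 (SE 1.04, adjusted p = 1.00), while leaving out C replicate 2 gave 0.15 and C replicate 1 gave 0.33, against 0.82 with all arrays. The part of array quality in these values was not tested.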

How the results depend on the processing

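Of 594 pairs of a named value and an alternative, 509 kept direction and side of the threshold, 68 turned sign, 10 lost and 7 gained a call. Among them no named difference between formulas reached an adjusted p under 0.05, and the smallest was 0.348, for GABRA2 237250_at in L3/L without L3 replicate 4. The cause of the changes was not tested. All results are limited by 4 arrays per formula, and those of dim probe sets also by their signals. Bright sets could depend on the scaling. With median centring GABRA2 237250_at went from 0.80 to 0.40 in L3/L, and GABRB2 242344_at from -0.07 to -0.48 in L3/C. Of the 21 probe sets, 11 had medians below the highest of the genes of other tissues, which was that of ALB.

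The number of subunit probe sets at an unadjusted p under 0.05 was 0 in L3/C, 0 in L/C, 1 in L3/L and 1 for any difference. For any difference it was 0 without further normalization, with median centring, without a variance trend, with the ACTB ratio as a covariate and with the spike-in set as a block. With median centring L3/L also had 0. Plain analysis of variance gave 2 in L3/L and 2 for any difference, and the 8 arrays compared alone gave 2 in L3/L. Females only gave 4 in L/C, 3 in L3/L and 3 for any difference. Within the high set they were 3 in L/C, 5 in L3/L and 3 for any difference, and within the low set 1 in L3/C. Leaving out 1 array gave 0 to 3 in L/C, 1 to 4 in L3/L and 0 to 4 for any difference. The share of all probe sets was not taken under these alternatives, nor under the replicate block below. The counts therefore cannot be read as a result about the subunits.

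Whether the replicate numbers pair the animals was not settled. Of 12 pairs with the same number, 6 had a correlation of deviations over 0.1 (lowest -0.09, highest 0.33). These were the pairs numbered 1 and 4, and arrays with different numbers were not compared. With the replicate block the counts were 1 in L3/C, 1 in L/C, 3 in L3/L and 2 for any difference, and 0 probe sets were called between the spike-in sets, where GABRD 208457_at stood at -3.57 (adjusted p = 0.0765) and GABRA5 215531_s_at at 0.20. All arrays numbered 1 are in the high set and all numbered 4 in the low set. Of probe sets called between the spike-in sets, main 2, there were 6 with median centring, 1 with plain analysis of variance, 1 in females only and 1 to 3 on leaving out 1 array. Here too the share of all probe sets was not taken.

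In L3/C, signs turned for GABRA3 207210_at (0.029 without further normalization, 0.0035 with a pseudocount of 64, 0.12 in females, 0.084 with spike-in signal as a covariate, 0.10 with the ACTB ratio, 0.081 with the spike-in set as a block, 0.44 in the low set, -0.18 to 0.14 on leaving out 1 array). GABRA4 208463_at turned to -0.19 without further normalization, -0.36 with median centring, -0.12 with sex as a covariate, -0.29 in females, -0.062 with spike-in signal, -0.043 with the spike-in set as a block and -0.020 in the high set (leaving out 1 array, -0.13 to 0.21). GABRA5 217280_x_at turned to 0.034 in females, 0.0020 with the ACTB ratio and 0.22 in the low set (leaving out 1 array, -0.35 to 0.18), and was 0.25 by 206456_at and 0.13 by 215531_s_at. GABRB1 207010_at turned to -0.17 with median centring and -0.39 in the high set (leaving out 1 array, -0.031 to 0.39), and was -0.28 by 1557256_a_at. GABRD 208457_at turned to 0.15 with spike-in signal, 0.028 with the ACTB ratio, 0.36 with the spike-in set as a block, 0.18 in the high and 0.63 in the low set (leaving out 1 array, -1.57 to 0.14, the last without C replicate 4). GABRA2 was -0.051 by 1554308_s_at and -0.22 by 207014_at. GABRB2 242344_at ran from -0.21 to 0.15 on leaving out 1 array and was 0.034 by 1557122_s_at.

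In L/C, GABRA4 208463_at turned to -0.18 in females and -0.00085 in the low set (leaving out 1 array, -0.042 to 0.35). GABRB1 207010_at turned to 0.23 in females and 0.38 in the low set (leaving out 1 array, -0.27 to 0.15), and was 1.53 by 1556904_at, 0.42 by 1558225_at and 0.39 by 236716_at. GABRB2 242344_at turned to 0.38 in the low set (leaving out 1 array, -0.27 to 0.10), and was 0.11 by 1557122_s_at and 0.92 by 207352_s_at. GABRD 208457_at turned to -0.11 with the spike-in set as a block and -0.34 in the high set. Its L3/L of -1.40 turned to 0.47 with the spike-in set as a block, 0.52 in the high and 0.59 in the low set. GABRA2 was 0.11 by 207014_at and 0.38 by 216039_at, and GABRA5 was -0.21 by 206456_at. Median centring moved the median of all probe sets by -0.12 in L3/C and -0.13 in L3/L, and 6 of 21 subunit probe sets were then above 0 in L3/C. Fits within a spike-in set assume that a formula with 1 array there varies like the others.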
